A study of Rattus norvegicus with 11 samples.

Results

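The C/EBP transcription factors were followed in leukocyte RNA from rats with collagen-induced arthritis (CIA), an autoimmune joint disease raised by injecting type II collagen in adjuvant. The group comprised 5 C/EBP genes, Cebpa, Cebpb, Cebpd, Cebpe and Cebpg, and Ddit3, which codes for the C/EBP homologous protein CHOP. They were picked by gene symbol and made 6 of the 32623 genes in the table. All rats were male Wistar rats, 7 weeks old at the start and kept free of specific pathogens. The CIA rats received bovine type II collagen in incomplete Freund's adjuvant (IFA-CII) at the left hind paw and a boost on day 7, while the 3 controls were healthy. Each of 4 CIA rats gave a Nampt++ sample at about day 8 and a Nampt+ sample at about day 14, and the study assigned these statuses by its own PCR of Nampt, the gene of the enzyme that limits NAD salvage. Status, day and time since the boost therefore cannot be told apart. Blood was freed of red cells by lysis, and poly(A) RNA of all remaining WBCs was sequenced, so that fewer cells of a type and less RNA per cell cannot be told apart either.

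C/EBP proteins are basic leucine zipper (bZIP) factors that bind DNA as dimers, with themselves, with each other or with other bZIP proteins. In the myeloid lineage C/EBPα drives the commitment of progenitors to granulocytes and monocytes, and C/EBPε is needed for the late stages of granulocyte maturation, when the secondary granules are filled. C/EBPβ and C/EBPδ are known as mediators of the acute phase and of inflammatory gene induction, and C/EBPβ also sustains granulocyte output in emergencies. C/EBPγ lacks a transactivation domain and works through its partners. CHOP is induced by ATF4 in the integrated stress response and pairs with other C/EBP proteins, mostly keeping them from their usual sites.

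Several features of the samples bear on what follows. Total counts ran from 65340027 to 85819418 per sample, so counting error is small for all genes described here except perhaps Cebpe, which had 109 to 281 counts. The haemoglobin genes took between 6.84% and 42.8% of the counts, lowest in rats 1 and 4 at Nampt++ and highest in the Nampt+ sample of rat 2. FPKM, the reads of a gene scaled by its length and by the library's total, shrinks for every other gene as haemoglobin grows, and CPM outside the haemoglobin genes, counts scaled to the total of all other genes, were therefore computed too. The deposited extraction text speaks of retinas, while the sample sources name leukocytes. In every sample the summed markers reached at least 2217 FPKM for neutrophils and 4196 FPKM for monocytes. The lowest sums were 349 FPKM for T cells, 137 FPKM for B cells and 60.0 FPKM for NK cells. Nampt itself stood at 46.5, 10.1, 36.1 and 30.6 FPKM in the Nampt++ samples of rats 1 to 4, at 11.4, 14.3, 27.5 and 36.9 FPKM in their Nampt+ samples, and at 20.3, 32.9 and 13.5 FPKM in the controls. In rats 2 and 4 the sample labelled Nampt++ thus held less Nampt mRNA than the sample labelled Nampt+, and the lowest value of the series was in the library labelled Nampt++ from rat 2.

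The promoters of 5 of the 6 genes were matched in RefSeq (GRCr8 assembly), all but that of Cebpd. The 250 bases before the transcription start are shown, 5′ to 3′, for Cebpb, the most abundant gene of the family in these samples, and for Cebpa, whose window was the only one with the core of a C/EBP site. Capitals mark TTGCG, the core of a C/EBP site, or its reverse complement in Cebpa, and TGACGCA, a variant of the cAMP response element, in Cebpb. Both genes lie on the plus strand, the Cebpa stretch at chr1:96896334-96896583 and the Cebpb stretch at chr3:176816755-176817004.
Cebpa: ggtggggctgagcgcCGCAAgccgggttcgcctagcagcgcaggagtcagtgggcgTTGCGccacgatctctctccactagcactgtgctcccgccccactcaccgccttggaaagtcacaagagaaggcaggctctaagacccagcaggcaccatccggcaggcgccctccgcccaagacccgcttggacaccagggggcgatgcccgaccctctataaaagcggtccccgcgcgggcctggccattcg
Cebpb: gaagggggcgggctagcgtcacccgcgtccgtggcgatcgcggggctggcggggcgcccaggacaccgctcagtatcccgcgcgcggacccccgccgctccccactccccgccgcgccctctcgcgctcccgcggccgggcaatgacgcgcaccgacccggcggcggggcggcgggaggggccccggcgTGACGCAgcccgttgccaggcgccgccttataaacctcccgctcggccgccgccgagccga

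Of 9 motifs searched on both strands, TTGCG occurred in the Cebpa promoter 194 to 190 and, reversed, 235 to 231 bases before the start, and in none of the other promoters of the family. It was present in 14.95% of all 33469 promoters of this length. TGACGCA occurred in Cebpb 61 to 55 bases before the start, against 1.66% of all promoters. TATAAA was found in Cebpa and Cebpb, 35 to 30 and 33 to 28 bases before the start, against 12.9% of all promoters. TGACTCA, the AP-1 site, occurred in Ddit3 and Cebpe, against 4.05%, and TTCNNNGAA, a STAT element, in Cebpe, against 7.67%. ATTGG, a reversed CCAAT box, was found at 2 places in Cebpg and at 1 in Ddit3, against 34.02%. The full TTGCGCAA (which contains TTGCG), the C/EBP-ATF element TTGCATCA and the complete cAMP response element TGACGTCA were in none of the 5 windows, against 0.140%, 0.693% and 1.59% of all promoters. The windows were rich in G and C, from 56.4% in Cebpe to 80.0% in Cebpb, with a median of 51.2% over all promoters. The study named Cebpd among the genes that differed between its Nampt++ and Nampt+ samples. It then measured Cebpd by PCR in other rats at a later day, and classed it among regulators of inflammation independent of Nampt. The study's primer pair for Cebpd, the gene with the widest spread below, is shown for reference and written 5′ to 3′.
Cebpd-F: aacgaccgatacctcagacc
Cebpd-R: tagcttctctcgcagtccag

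The levels of the 6 genes spanned more than 2 orders of magnitude. Cebpb was highest, at 411 ± 201 FPKM (SD, n = 11), ahead of Ddit3 at 67.5 ± 19.1, Cebpa at 30.1 ± 22.7, Cebpd at 20.8 ± 17.8, Cebpg at 13.96 ± 4.53 and Cebpe at 1.40 ± 0.438 FPKM. Cebpb stood above Ddit3 and Cebpg above Cebpe in 11 of 11 samples, and their ranges did not overlap. Ddit3 also exceeded Cebpa in every sample, by as little as 1.07-fold, and their ranges overlapped. Cebpa exceeded Cebpd in 10 of 11 samples, the exception being the Nampt++ sample of rat 1. Cebpd and Cebpg could not be ordered, with Cebpd higher in 7 of 11 samples. Spread was very unequal too. Outside the haemoglobin genes the highest sample exceeded the lowest 11.9-fold for Cebpd, 5.93-fold for Cebpa and 5.01-fold for Cebpb, but only 3.31-fold for Ddit3, 2.03-fold for Cebpe and 1.93-fold for Cebpg.

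**Figure D1:**
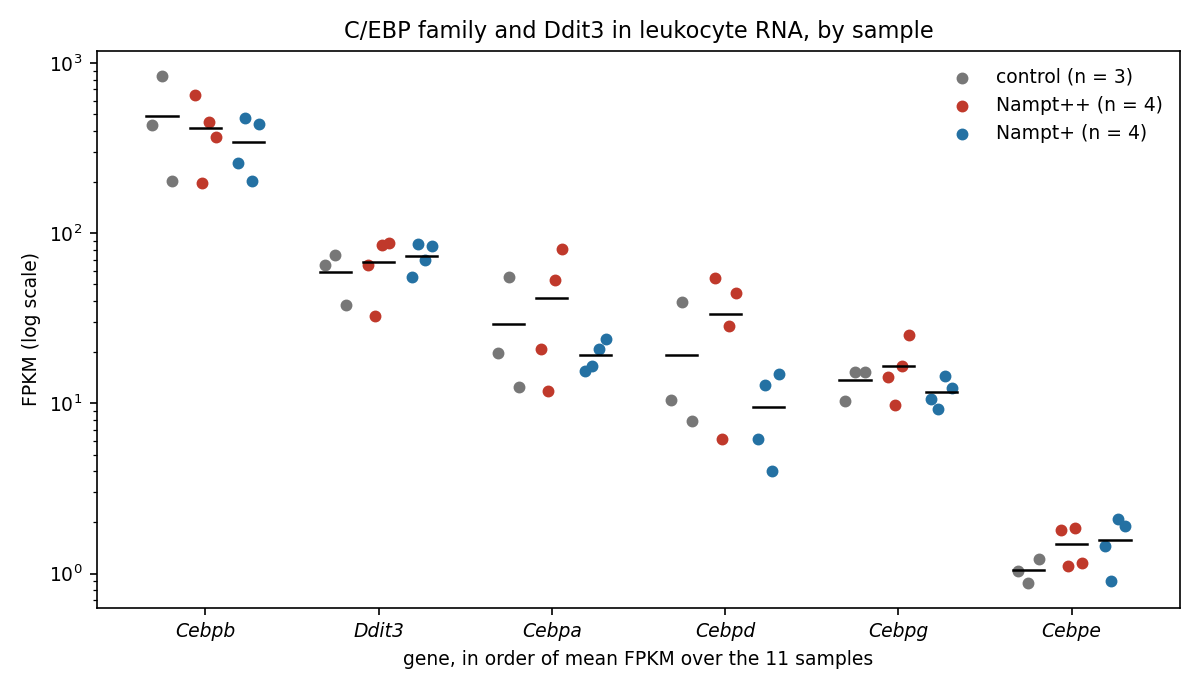
FPKM of the 6 genes (log axis) in each sample, grouped into controls (n = 3), Nampt++ (n = 4) and Nampt+ (n = 4) samples, with bars at the group means. Cebpb lies above and Cebpe below all others, and Cebpa and Cebpd spread widely in the Nampt++ and control groups.

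Comparing Nampt+ with Nampt++ samples asks what differed in these rats' WBCs between the 2 time points. To be called, a gene had to differ over 2-fold between mean FPKMs (a ratio above 2 or below 0.5) at an unadjusted p under 0.05 by edgeR, which are the study's thresholds. By this rule 0 of the 6 genes were called, where the background was 0.642% of the 11219 genes tested, and 0 of 6 had groups that did not overlap, against a background of 0.41%. At an unadjusted p under 0.05 alone, 0 of 6 passed, against 2.28%. After Benjamini-Hochberg adjustment of edgeR's p-values no gene of the 11219 passed, and 5 did in DESeq2, none of them among the 6. DESeq2 and limma each called 1 of the 6, Cebpd, where they called 0.927% and 0.865% of all genes.

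Cebpd, on chr11:89008008-89009146 in the deposited table, whose genome build is not given in the sources used here, came nearest to the threshold. Its level was 54.2, 6.18, 28.3 and 44.5 FPKM at Nampt++ in rats 1 to 4, and 6.19, 12.9, 3.98 and 14.8 FPKM in their Nampt+ samples. All Nampt+ values were below those of rats 1, 3 and 4 at Nampt++, and only the low Nampt++ value of rat 2 made the groups overlap. Within rats the Nampt+ sample was 8.76-fold lower in rat 1, 7.12-fold lower in rat 3 and 3.00-fold lower in rat 4, but 2.09-fold higher in rat 2. The group means were 33.3 ± 21.0 and 9.47 ± 5.20 FPKM, a ratio of 0.284. The log2 fold change was -1.49 (SE 0.68, 95% interval -3.04 to 0.06), and the adjusted p was 0.9996 in edgeR's quasi-likelihood test.

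Whether Cebpd was called depended on the method. The gene passed with DESeq2, with limma on log2(FPKM + 1), with limma's replicate block for the rat, with upper quartile scaling and with no filter on low values, at log2 fold changes between -1.53 and -1.46. With the rat as a block, edgeR gave -1.73 (SE 0.92), and Cebpd was not called. Leaving out the Nampt++ or the Nampt+ sample of rat 2, the only rat in which Cebpd rose, moved it to -1.82 or -2.08. Both were called, in settings in which 163 of 11258 and 165 of 11356 genes were. Dropping the rat that went the other way strengthens the fall by design, so neither value is an independent test. In rats 1 and 3 alone, where the Nampt++ sample held more Nampt mRNA, it was -3.14. These rats were chosen on measured Nampt, whose level went with the summed markers of monocytes, eosinophils and neutrophils (r = 0.87, 0.81 and 0.77 over 11 samples), so this value is no independent test. Cebpd has a neighbour, Spidr, on the opposite strand 784 bases away, whose counts reached 3261 in the Nampt++ sample of rat 1, the sample with the highest Cebpd, against 1157 in the next highest sample.

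**Figure D2:**
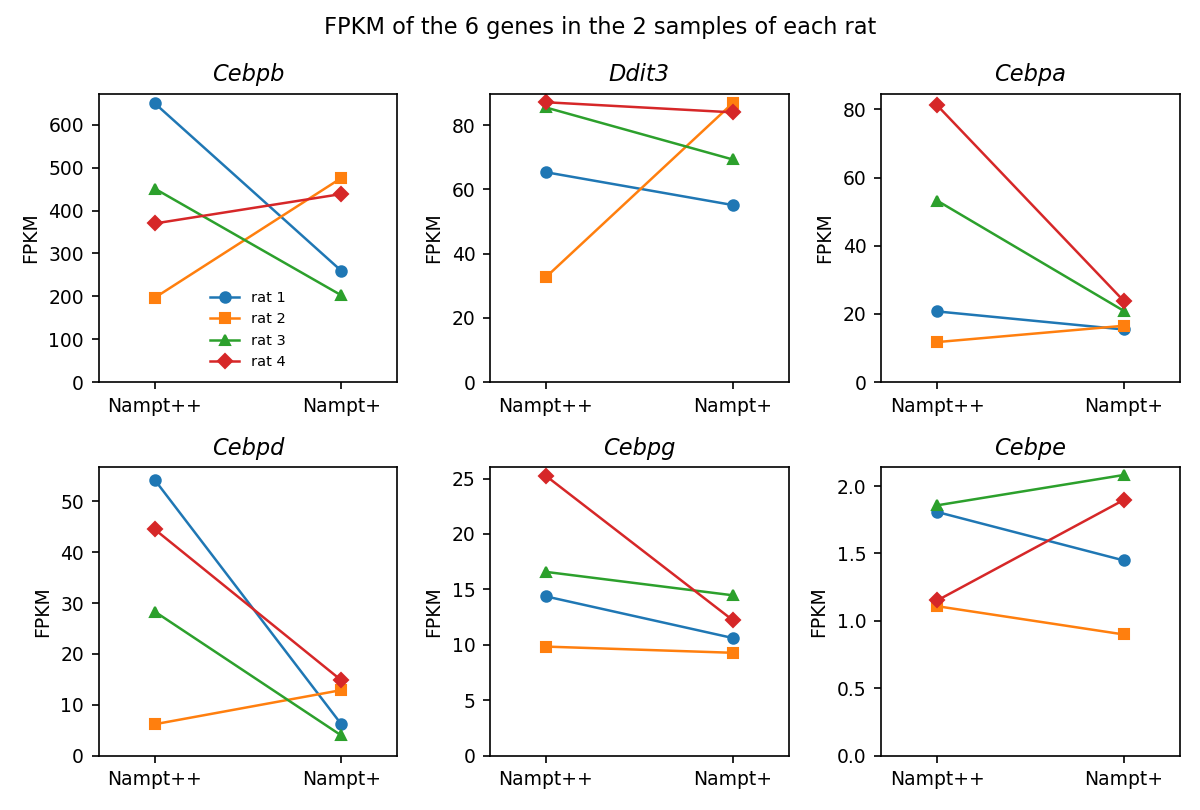
FPKM of each of the 6 genes in the Nampt++ and Nampt+ samples of rats 1 to 4, with a line for each rat and linear axes from 0. Cebpd drops steeply in rats 1, 3 and 4 and not in rat 2, and rat 2 is the only rat in which Ddit3 and Cebpa go up.

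Cebpa (chr1:91363492-91366164) was at 20.8, 11.8, 53.3 and 81.2 FPKM at Nampt++ in rats 1 to 4, and at 15.5, 16.5, 20.9 and 23.8 FPKM in the Nampt+ samples. The Nampt+ values were close together and the Nampt++ values were not, with SDs of 3.89 and 31.8 FPKM around means of 19.2 and 41.7. The difference came mostly from rats 3 and 4, in which Cebpa was 2.55-fold and 3.41-fold lower at Nampt+. The ratio of means was 0.460 and the log2 fold change -0.94 (SE 0.50, 95% interval -2.09 to 0.20), so that Cebpa was not called. It was called without the Nampt++ sample of rat 1 (-1.17), where 103 of 11201 genes were, or of rat 2 (-1.23), where 163 of 11258 were. Cebpa was not called in rats 1 and 3 alone (-1.23).

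Cebpb (chr3:164424515-164425910) was at 650, 197, 451 and 370 FPKM in the Nampt++ samples and at 260, 476, 203 and 439 FPKM in the Nampt+ samples. It was lower at Nampt+ in rats 1 and 3 and higher in rats 2 and 4. The log2 fold change was 0.01 (SE 0.50, 95% interval -1.13 to 1.15), and this near-zero value took either sign depending on the processing. Rats 1 and 3 alone gave -1.39, which passed the thresholds, in a setting in which 642 of 11330 genes did. Cebpb and Cebpd thus parted in rat 4, where Cebpb was 1.19-fold higher and Cebpd 3.00-fold lower at Nampt+. The ratio of Cebpb to Cebpd FPKM was 8.31 to 31.8 in the Nampt++ samples, 29.6 to 50.9 in the Nampt+ samples and 21.2 to 41.5 in the controls, and the ranges overlapped.

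Cebpg (chr1:91287917-91296656) had the narrowest spread of the family in CPM outside the haemoglobin genes. It was at 14.4, 9.84, 16.6 and 25.2 FPKM in the Nampt++ samples and at 10.6, 9.28, 14.5 and 12.2 FPKM in the Nampt+ samples. Its FPKM was lower at Nampt+ in 4 of 4 rats, but by CPM outside the haemoglobin genes in 3 of 4, as rat 2 came out 0.05 higher on the log2 scale. The log2 fold change was -0.37 (SE 0.24, 95% interval -0.91 to 0.17).

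Cebpe (chr15:33355947-33358138) lay close to the filter of 1 FPKM. Its level was 1.81, 1.11, 1.86 and 1.15 FPKM in the Nampt++ samples and 1.45, 0.90, 2.08 and 1.897 FPKM in the Nampt+ samples. It was lower in 2 rats and higher in 2 by FPKM, and lower in 1 of 4 outside the haemoglobin genes, with a log2 fold change of 0.12 (SE 0.27, 95% interval -0.50 to 0.73).

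Ddit3 (chr7:70580198-70585084) was at 65.3, 32.7, 85.5 and 87.1 FPKM in the Nampt++ samples and at 55.1, 86.8, 69.3 and 84.0 FPKM in the Nampt+ samples. By FPKM it was lower at Nampt+ in 3 of 4 rats, by at most 1.23-fold, and outside the haemoglobin genes in 1 of 4. Rat 2 moved the other way, with 2.66-fold more at Nampt+. The log2 fold change was 0.36 (SE 0.38, 95% interval -0.51 to 1.22), and -0.09 without the Nampt+ sample of rat 2. Ddit3 overlaps Mars, on the opposite strand, by 72 bases, and whether the counting used strand is not given in the sources used here.

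The controls were compared with each status to place both against healthy rats. Between Nampt++ samples and controls 0 of the 6 genes were called, against a background of 0.686%, 0 of 6 passed on p alone, against 1.57%, and 0 of 6 had groups that did not overlap, against 1.1%. Between Nampt+ samples and controls 0 of 6 were called, against 0.497%, 0 of 6 passed on p alone, against 0.87%, and 0 of 6 did not overlap, against 0.444%. DESeq2 and limma called 0 of the 6 in both comparisons as well, against 1.08% and 1.37% of all genes for Nampt++ against control, and 0.648% and 0.754% for Nampt+ against control. After adjustment of edgeR's p-values no gene passed in either comparison. Both comparisons share the controls, and each shares its CIA samples with the comparison of the 2 statuses.

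Control 2 stood apart from the other controls for the 3 genes with the widest spread. Cebpa was at 19.7, 55.2 and 12.5 FPKM in controls 1 to 3, Cebpb at 434, 838 and 201 FPKM and Cebpd at 10.5, 39.5 and 7.89 FPKM. For Cebpb the value of control 2 was the highest of all 11 samples. Cebpg was at 10.3, 15.2 and 15.4 FPKM, Cebpe at 1.04, 0.89 and 1.21 FPKM and Ddit3 at 64.8, 74.2 and 37.9 FPKM, and control 2 was not apart for these.

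For Nampt++ against control the log2 fold change of Cebpd was 0.47 (SE 0.82, 95% interval -1.44 to 2.37), and it was 1.895 and called without control 2, when 462 genes were called in place of 77. Cebpa gave 0.23 (SE 0.78), Cebpb -0.47 (SE 0.61), Cebpe 0.48 (SE 0.32), Cebpg 0.17 (SE 0.30) and Ddit3 0.04 (SE 0.42). For Nampt+ against control Cebpa gave -0.73 (SE 0.60), Cebpb -0.47 (SE 0.71), Cebpd -1.03 (SE 0.83) and Cebpg -0.21 (SE 0.27). Without control 2 all 4 turned positive, at 0.45, 0.44, 0.40 and 0.12. Ddit3 gave 0.39 (SE 0.49) in this comparison. Cebpe came nearest to a call, at a log2 fold change of 0.58 (SE 0.27, 95% interval -0.04 to 1.21) and a ratio of 1.52 that stayed short of 2.

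**Figure D3:**
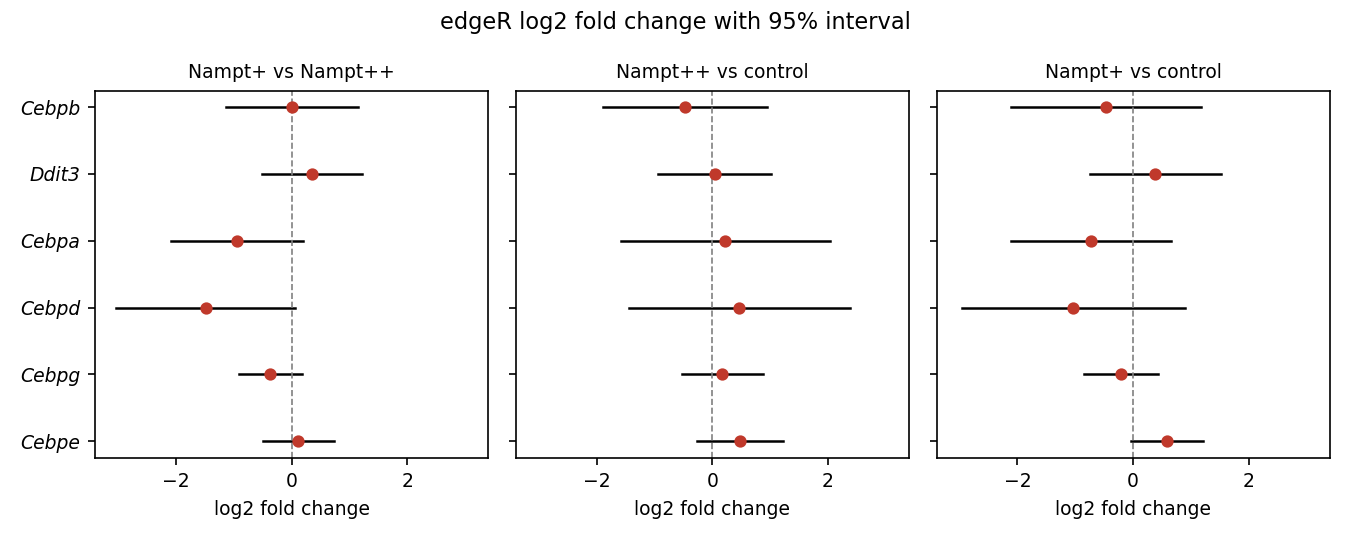
edgeR log2 fold changes of the 6 genes in the 3 comparisons, with 95% intervals as lines. All intervals include 0, and those of Cebpg and Cebpe are the narrowest.

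Markers of the cell types in blood were summed to set the 6 genes beside the make-up of the samples. The 10 neutrophil markers together ranged from 3051 to 40323 FPKM in the Nampt++ samples, from 3822 to 15499 in the Nampt+ samples and from 2217 to 14079 in the controls, and S100a8 and S100a9 made up most of it. The lowest Nampt++ value belonged to rat 2, whose Nampt+ sample held the highest Nampt+ value. None of the 9 neutrophil markers tested was called in any of the 3 comparisons. The monocyte markers ranged from 5681 to 12768 FPKM, from 5396 to 13744 and from 4196 to 10622 in the same order, with Cd163 at 0 throughout. Across the 11 samples, which come from 7 animals and share depth and haemoglobin content, log2(FPKM + 1) of Cebpb went with that of the neutrophil sum (Pearson r = 0.87), as did Cebpd (0.78) and Ddit3 (0.72), more than Cebpa (0.45), Cebpe (0.18) or Cebpg (0.15). With the monocyte sum r was 0.72 for Ddit3, 0.71 for Cebpa, 0.67 for Cebpd and 0.63 for Cebpb. Ddit3 went most with the eosinophil sum (0.81). Cebpg went against the erythroid markers (-0.77), as did Nampt (-0.66) and Cebpe (-0.56). FPKM of other genes shrinks as haemoglobin grows, and no r outside the haemoglobin genes is given for these. The part of cell make-up in the differences above was not tested.

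Samples with like neutrophil sums can be set side by side. The Nampt++ samples of rats 3 and 4 had sums of 12808 and 9371 FPKM, and the Nampt+ samples of rats 2 and 4 had 15499 and 14183 FPKM. Cebpb was at 451 and 370 against 476 and 439 FPKM, and Cebpd at 28.3 and 44.5 against 12.9 and 14.8 FPKM. Haemoglobin took 20.2% and 7.80% of the counts in the first pair and 42.8% and 14.8% in the second. In CPM outside the haemoglobin genes Cebpb was at 821 and 588 against 1196 and 753, and Cebpd at 42.1 and 57.7 against 26.4 and 20.8. Control 2 had a like sum, 14079 FPKM, with Cebpb at 838 and Cebpd at 39.5 FPKM. In CPM outside the haemoglobin genes its Cebpb was at 1754.5 and its Cebpd at 67.4, with haemoglobin at 30.9% of the counts. The 4 CIA samples were picked after their values were seen, and the difference between the pairs has no test.

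**Figure D4:**
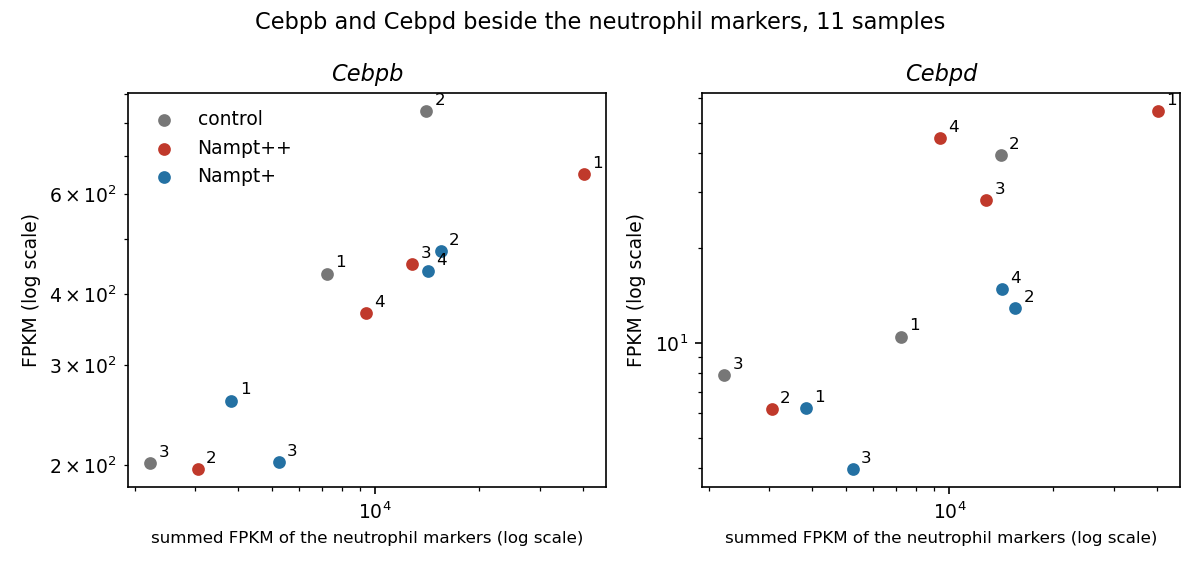
FPKM of Cebpb and Cebpd against the summed FPKM of the neutrophil markers, both axes logarithmic, with a point for each of the 11 samples numbered by rat or control. Cebpb climbs with the marker sum in all groups. For Cebpd the Nampt++ samples of rats 3 and 4 and control 2 lie above the Nampt+ samples of rats 2 and 4.

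Among themselves the 6 genes were most alike by Pearson r in the pairs Cebpb and Cebpd (r = 0.82) and Cebpa and Cebpg (0.77). Cebpa and Cebpg lie close together on chromosome 1. By rank (Spearman) the closest pairs were Cebpa and Ddit3 (0.78) and Cebpb and Cebpd (0.77), with Cebpa and Cebpg at 0.65. Cebpe was unlike all others, with r between -0.17 and 0.19. Among 4314 named genes with a mean of at least 10 FPKM, those most like Cebpb were Slc2a3, a glucose transporter (0.93), Il1b, the cytokine interleukin-1β (0.93), and Dusp1, a phosphatase that shuts off MAP kinases (0.92). Those most like Cebpa were Hmox1, the haem-degrading enzyme (0.96), Itgax, the integrin CD11c (0.95), and Zeb2, a transcription factor (0.95). Those most like Cebpd were Gadd45g, Chmp5, a subunit of the membrane-sorting ESCRT machinery, and Fbxl5, which regulates iron-responsive proteins (0.94, 0.94 and 0.93). Cebpg was closest to Phc2, a Polycomb protein (0.99), Tbk1, a kinase of innate immune signalling (0.96), and Chic2 (0.96). Cebpe was closest to Cxxc1, Mbd1 and Diablo (0.88, 0.85 and 0.84), and Ddit3 to Tagap, Rbpj and Pmaip1 (0.90 each). For Tagap r was 0.49 without the 2 samples farthest from the median of Ddit3, and for Pmaip1 it was 0.71. For the other 16 it stayed at 0.796 or above.

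Genes that the family is known to act on or work with were taken as lists. The granule and late neutrophil genes, which C/EBPα and C/EBPε switch on, were 19, of which 14 were tested, and 0 were called in any of the 3 comparisons. Mpo, Prtn3, Ctsg, Ltf and Bpi were each below 1 FPKM on average, and S100a9, S100a8 and the lectin gene Fcnb led the list. S100a9 averaged 10706 FPKM in Nampt++ samples, 6377 in Nampt+ samples and 5341 in controls, with a log2 fold change of -0.37 (SE 0.83) for Nampt+ against Nampt++. The median log2 fold change over the 14 genes was -0.31 for Nampt+ against Nampt++, 0.56 for Nampt++ against control and 0.41 for Nampt+ against control, beside -0.00021, 0.0018 and -0.0027 over all genes tested. Without the Nampt++ sample of rat 1 the median was 0.54 for Nampt+ against Nampt++ and -0.15 for Nampt++ against control, so both signs turned. S100a9 was at 25724, 1903, 8946 and 6249 FPKM at Nampt++ in rats 1 to 4. S100a8, S100a9, Fcnb and others of these genes are also on the neutrophil marker list. In rats 1 and 3 alone 10 of the 14 were called lower at Nampt+, Elane, Hp, Lcn2, Mmp8, Mmp9, Olfm4, Padi4, Pglyrp1, S100a8 and S100a9, where the background was 4.85% of 11330 genes. These rats were chosen on Nampt, which went with the neutrophil markers, so nothing is read from this count. At an unadjusted p under 0.05 alone edgeR passed 0 genes of this list and of the next 2 in any comparison of the full groups.

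The myeloid receptors and transcription factors gave 0 called of 16 tested in each comparison, with medians of -0.03, 0.25 and 0.16 in the same order. Csf3r, the G-CSF receptor, averaged 356, 163 and 119 FPKM in Nampt++, Nampt+ and control samples. Spi1, the myeloid factor PU.1, averaged 204, 118 and 103 FPKM, and Csf2ra, a GM-CSF receptor chain, 148, 99.4 and 81.1 FPKM. Each was highest in the Nampt++ group mean, and none was called over the full groups. For Csf3r that mean rested on rat 1, at 1072 FPKM at Nampt++, against 53.6, 173 and 126 FPKM in rats 2 to 4. In rats 1 and 3 alone Csf2ra, Csf2rb, Csf3r and Spi1 were called lower at Nampt+, where the background was 4.85% of 11330 genes. These rats were chosen on Nampt, so nothing is read from this count. Without control 2, Csf2ra, Spi1 and Trib1 were called higher in Nampt++ than in control, where 2.91% of 11303 genes were. Csf3r is also a neutrophil marker.

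The inflammatory genes linked to C/EBPβ and C/EBPδ gave 0 called of 15 tested in each comparison. For Nampt+ against Nampt++ 12 of the 15 were on the lower side, with a median of -0.38, beside -0.00021 over all genes. The monocyte markers were on the lower side in 7 of 7 tested, with a median of -0.49, and the neutrophil markers in 5 of 9, with a median of -0.37. Their part in the shift of this list was not tested. Il1b averaged 3164, 1943 and 2125 FPKM in Nampt++, Nampt+ and control samples, Ccl3 1372, 832 and 938 FPKM, and Cxcl2 444, 514 and 776 FPKM. Socs3, the feedback inhibitor of cytokine signalling, was singled out after its values were seen, since it behaved like Cebpd. It was at 314, 67.3, 258 and 448 FPKM at Nampt++ in rats 1 to 4, and at 57.2, 110, 110 and 149 FPKM in their Nampt+ samples, again with rat 2 alone going up. Its log2 fold change was -1.12 (SE 0.51, 95% interval -2.27 to 0.03), and DESeq2 and limma called it. Without control 2, 7 of the 15 inflammatory genes, Ccl3, Cd14, Il10, Il1rn, Orm1, Socs3 and Stat3, were called higher in Nampt++ than in control, where 2.91% of 11303 genes were. Without control 3, Cxcl2 and Ptgs2 were called lower instead, where 69 of 11140 genes were. Without control 1, Il6 was called lower, where 23 of 11170 genes were. Il6 was at 8.56 FPKM in control 2 and 1.51 FPKM in control 3, against 0.82 to 2.44 FPKM in the Nampt++ samples. That call therefore rested on control 2 and on low levels.

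The genes of the integrated stress response and the unfolded protein response, which lie around Ddit3, gave 0 called of 23 tested in each comparison, with medians of 0.11, 0.11 and 0.08. At an unadjusted p under 0.05 alone 1 passed, Ero1b, an oxidase of the endoplasmic reticulum, at -0.43 (SE 0.18) for Nampt++ against control. Atf4, which induces Ddit3, averaged 281, 309 and 282 FPKM in Nampt++, Nampt+ and control samples. Hspa5, the chaperone BiP, averaged 273, 257 and 249 FPKM, and Ppp1r15a, the phosphatase subunit GADD34, 234, 204 and 180 FPKM. The means of Ppp1r15a in Nampt++ samples and controls, 1.303-fold apart, differed most among these, and none passed a test.

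Of the other bZIP factors, which can share partners or sites with the family, 23 were tested and Fosb, an AP-1 subunit, was called higher in Nampt+ than in Nampt++ samples. It was at 21.2, 26.1, 77.2 and 54.2 FPKM at Nampt++ in rats 1 to 4, and at 103, 51.9, 127 and 135 FPKM in their Nampt+ samples. Each of the 4 rats had more Fosb at Nampt+, although the groups overlapped. The log2 fold change was 1.23 (SE 0.39), with an adjusted p of 0.9996 in edgeR's quasi-likelihood test. The controls, at 212, 78.3 and 15.6 FPKM, spanned the range of both groups. Without the Nampt++ sample of rat 1 the ratio fell short of the threshold, and neither with all groups in 1 fit nor in rats 1 and 3 alone (1.02, SE 0.67) was it called. Fos, its relative, gave 0.80 (SE 0.36), while Junb gave -0.26 (SE 0.43) and Jund 0.10 (SE 0.20). Over the full groups 0 of the 23 were called against controls. For Nampt++ against control, Batf, Nfe2l2 and Nfil3 were called higher without control 2, where 2.91% of 11303 genes were. Fos and Fosb were called lower without control 3, where 69 of 11140 genes were. Batf3 was called higher without the Nampt++ sample of rat 1, where 49 of 11208 genes were. Its level was low, from 1.11 to 3.88 FPKM in the samples used.

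**Figure D5:**
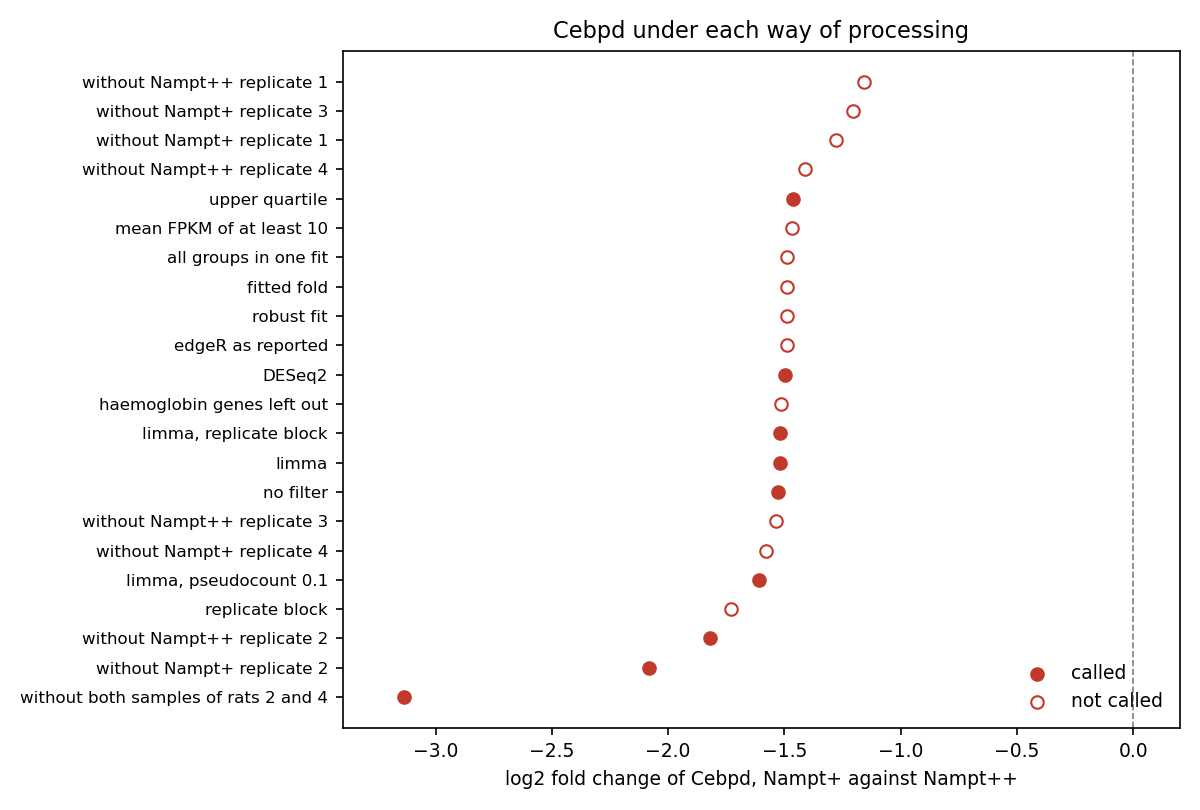
log2 fold change of Cebpd for Nampt+ against Nampt++ under each way of processing, filled where the gene was called and open where it was not. All values lie between -3.14 and -1.16, and among those near -1.50 some are called and others not.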

How the data were processed

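RNA of peripheral WBCs was measured in 11 samples, 4 Nampt++, 4 Nampt+ and 3 control. Per the labels, cutadapt 1.9, HISAT2 2.0.4 and StringTie 1.3.4 were used, in roles that are not stated there. The genome build, the read counter and the use of strand are not given in the sources used here. The authors deposited whole-number counts of reads per gene without normalization, and FPKM values scaled by gene length and library total, in which 0.0001 stands for 0. No column of other samples was used.

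Counts were fitted with edgeR 4.0.16 (quasi-likelihood test, TMM), a pair of groups at a time, over genes whose FPKM averaged 1 or more in the samples compared, and p-values were adjusted by Benjamini-Hochberg over all genes tested. The script was tested on simulated data. The number of rats, not the depth of 65340027 to 85819418 counts, limits the precision. Each p-value rests on the spread between these rats. Alternatives were DESeq2 1.42.0, limma 3.58.1 on log2(FPKM + 1) or log2(FPKM + 0.1), upper quartile scaling, other filters, the 11 haemoglobin genes left out, a robust fit, all groups in 1 fit, the fitted fold in place of the ratio of means, and each sample left out. Samples of both statuses with the same number came from the same rat, so the rat was also used as a replicate block. The deviations of paired samples from their group means correlated at -0.27, -0.24, 0.24 and 0.08 for rats 1 to 4.

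The genes named were the 6 themselves, the 3 highest genes and every called gene of each list, the 3 genes most like each of the 6 by Pearson r, and the marker lists. Among the markers of other cells, Ms4a2 of mast cells and basophils was called higher at Nampt+ than at Nampt++, and Ppbp of platelets lower at Nampt++ than in controls, while no T, B, NK, erythroid, monocyte or eosinophil marker was called in any of the 3 comparisons. Genes and lists were chosen with earlier results of these data known. Promoter sequences are from RefSeq, and primers from the study's supplement.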

Additional observations from a re-analysis of the deposited data

How the results depend on the processing

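For Nampt+ against Nampt++, Cebpd kept its negative sign in all 21 alternatives and was called in 9 of them. Its log2 fold change was -1.50 with DESeq2, -1.46 with upper quartile scaling, -1.53 with no filter, -1.52 with limma, -1.61 with limma and a pseudocount of 0.1, and -1.52 with limma's replicate block, all called. Leaving out each sample gave -2.08 to -1.16. Cebpa gave -1.23 to -0.54 when each sample was left out. Cebpb, at 0.01, turned to -0.015 without the haemoglobin genes, -0.026 with no filter, -0.24 with limma at either pseudocount and with limma's replicate block, and -0.19 with edgeR's replicate block, and leaving out each sample gave -0.60 to 0.27. With the replicate block edgeR called none of the 6, as without it, and Fosb stayed called. Leaving out each sample gave -0.059 to 0.25 for Cebpe and -0.093 to 0.53 for Ddit3. Leaving out both samples of rats 2 and 4, chosen after seeing the data, gave -3.14 for Cebpd, -1.39 for Cebpb, -0.22 for Cebpe and -0.45 for Ddit3. Against controls, leaving out each sample gave for Nampt++ -0.21 to 1.40 (Cebpa), -0.91 to 0.43 (Cebpb), 0.022 to 1.895 (Cebpd), -0.011 to 0.50 (Cebpg) and -0.30 to 0.46 (Ddit3), and for Nampt+ -1.16 to 0.45 (Cebpa), -1.09 to 0.44 (Cebpb), -1.64 to 0.40 (Cebpd), -0.39 to 0.12 (Cebpg) and -0.074 to 0.81 (Ddit3). Ddit3 in Nampt++ against control was -0.013 with upper quartile scaling and -0.014 with a minimum mean FPKM of 10, a filter that left Cebpe out. The log2 of the highest over the lowest Cebpg sample was 1.44 in FPKM, 0.84 to 1.44 in FPKM when each sample was left out, and 0.95 in CPM outside the haemoglobin genes. The causes were not tested.

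The 72 genes called for Nampt+ against Nampt++ became 295 with no filter, 19 at a minimum mean FPKM of 10, 129 with limma's replicate block, 642 without rats 2 and 4, and 58 to 165 when each sample was left out. The 77 for Nampt++ against control became 121 with DESeq2, 306 with no filter, 25 at a minimum mean FPKM of 10, 154 with limma, 140 with limma and a pseudocount of 0.1, and 53 to 462 when each sample was left out. The 56 for Nampt+ against control became 261, 14 and 85 with no filter, a minimum mean FPKM of 10 and limma, and 49 to 136 when each sample was left out.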
